A study of Mus musculus with 4 samples.

Results

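The genes described here encode regulators of splicing and mRNA fate that are best known from neurons. They were taken by symbol from a fixed set of 10: the Hu genes Elavl2, Elavl3 and Elavl4, the CELF genes Celf1, Celf2 and Celf4, the Nova genes Nova1 and Nova2, Ptbp2 and Rbfox2. The deposited table of expressed genes held 9 of the 10, each as 1 feature among 11160, and Nova2 has no row there and was not analysed here. All 9 passed the filter on low values. The cells were neural progenitors dissected at embryonic day 12.5 from the dorsal telencephalon of C57BL/6J mice and grown as neurospheres, which are floating clusters of dividing cells. The 4 RNA-seq libraries comprised 2 from wild-type (WT) cultures and 2 from cultures labelled as a full knockout of Mcph1, the gene for the chromosome condensation regulator microcephalin. Cultures from single embryos were pooled by 2 or 3 within a genotype, and twin RNA samples were pooled again, so a library is a pool and p-values measure the spread between pools.

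Hu proteins bind U-rich and AU-rich stretches of mRNAs and act on their stability, translation and splicing. CELF proteins bind GU-rich stretches, Nova and Rbfox proteins bind short motifs near alternative exons (UGCAUG for Rbfox), and the PTB proteins mostly repress exons next to pyrimidine-rich tracts. As progenitors of the cortex become neurons, Ptbp1 gives way to its paralogue Ptbp2, and the neuronal Hu and CELF proteins appear. The values here are read totals per gene, so they show how much RNA of each regulator was present and not which isoforms it or its targets had.

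Reads recovered from the table came to 7109365 for WT 1, 22347416 for WT 2, 10936719 for the first knockout-labelled library (KO 1) and 5975471 for the second (KO 2). The unit of all levels is scaled CPM: the deposited values after TMM scaling, per 1000000. Features without a symbol took 11.9% to 13.9% of the reads in the first 3 libraries and 21.8% in KO 2. Mcph1 itself was measured at 21.1 CPM in WT 1, 21.6 CPM in WT 2, 19.5 CPM in KO 1 and 20.3 CPM in KO 2 (log2 fold change -0.10, SE 0.24, limma adjusted p = 0.922). A total over the whole gene cannot show a deleted exon, so this checks the label neither way, and the second group is called KO-labelled. Every direction is KO-labelled against WT. All 11 radial glia markers of a fixed list had a row, as did all 6 astrocyte and all 7 oligodendrocyte lineage markers. So did 13 of 21 neuron markers, but not the neuron marker Rbfox3. Of 6 intermediate progenitor markers, only Hes6 and Btg2 had a row, and Eomes did not. No microglia, endothelium, mural, meningeal or erythroid marker had a row.

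Much of the variation of these regulators lay in 1 library, KO 1. Celf4, Rbfox2, Elavl3 and Elavl2 were more than 2-fold higher in KO 1 than in every other library, and 1.71% of all 10971 tested features were. In 7 of the 9 genes KO 1 was the highest library, compared with 29% of features. In 5 of the 9 genes KO 1 was more than 2-fold above KO 2 (5.26% of features), and in 0 of them KO 2 was that far above KO 1 (4.99%). Between genotypes none of the 9 passed limma at an adjusted p of 0.05, where 0% of features did. None passed DESeq2 on the recovered reads either, which called 0.0538% of features higher and 0.134% lower. Without adjustment, 1 of the 9 (Rbfox2) had a p under 0.05 with a higher level, against 3.59% of features, and 0 had one with a lower level, against 3.99%. The estimates were higher in 5 of the 9 genes and lower in 4 (51.4% of features were higher), with a median log2 fold change of 0.20 beside 0.012 for all features. Relative to the WT mean, the median of the 9 genes was 0.73 on the log2 scale in KO 1 and -0.20 in KO 2.

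**Figure D1:**
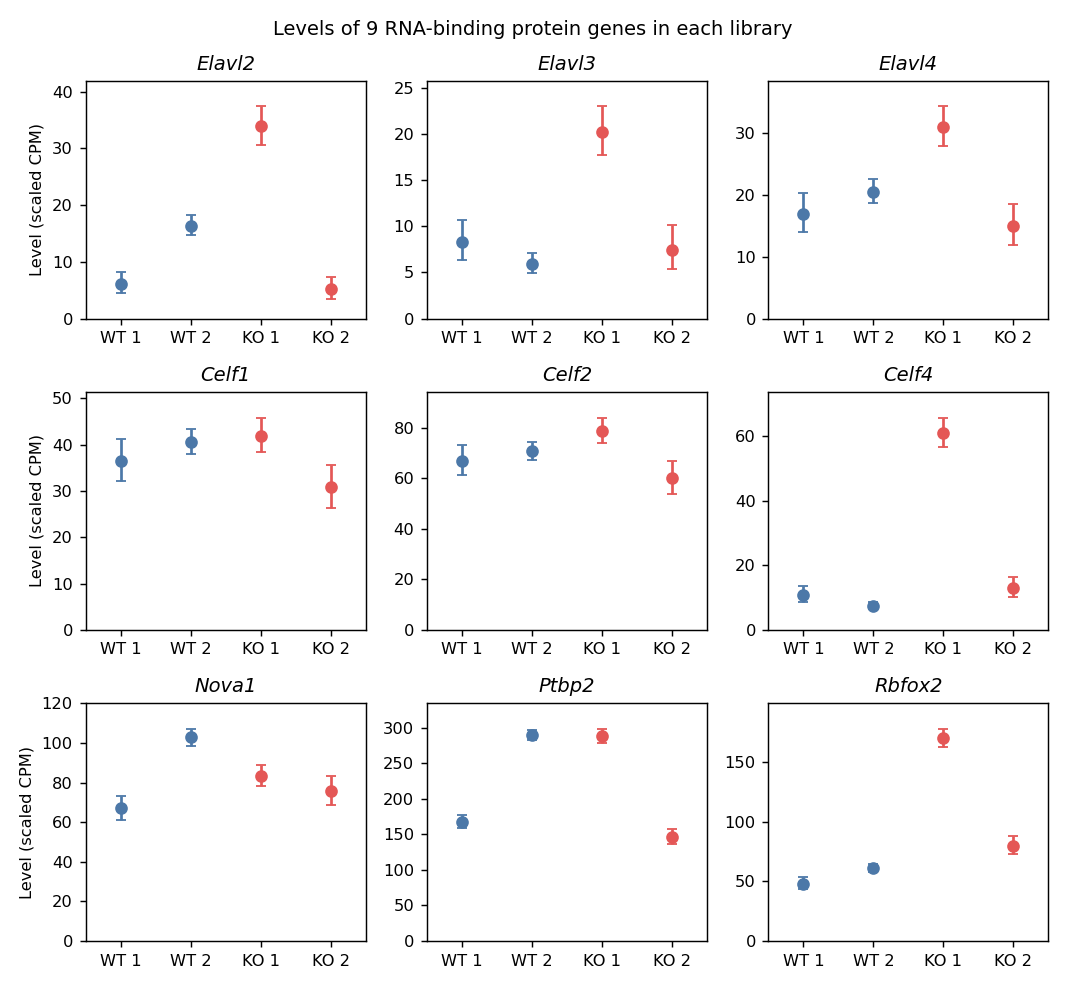
Level of each of the 9 genes (y axis, scaled CPM, starting at 0) in the 2 WT libraries (blue) and the 2 KO-labelled libraries (red). Points are single libraries and bars are 95% exact Poisson intervals, which cover counting error only. Celf4, Rbfox2, Elavl3 and Elavl2 stand highest in KO 1, whereas Celf1 and Celf2 vary little. Nova1 is highest in WT 2, and Ptbp2 is high in WT 2 and KO 1.

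Of the Hu genes, Elavl3, which encodes HuC, a widely used marker of neurons, stood at 8.33 CPM in WT 1, 5.94 CPM in WT 2, 20.2 CPM in KO 1 and 7.47 CPM in KO 2. Only KO 1 lay apart, 2.43-fold above the next highest library, and KO 2 lay between the WT libraries. Its estimate was a log2 fold change of 0.80 with an SE of 0.51 (interval of 95% from -0.43 to 2.02, limma adjusted p = 0.699). Elavl2, which encodes HuB, stood at 6.11 CPM in WT 1, 16.4 CPM in WT 2, 33.9 CPM in KO 1 and 5.15 CPM in KO 2. Both groups were split: WT 2 was 2.69-fold above WT 1, and KO 1 was 6.58-fold above KO 2. The 29 reads behind the KO 2 value allow 3.45 to 7.40 CPM and the 399 reads behind KO 1 allow 30.7 to 37.4 CPM (95% exact Poisson intervals), so the gap between these 2 libraries was wider than counting error. Its log2 fold change was 0.40 with an SE of 0.89 (adjusted p = 0.914 by limma). Elavl4, which encodes HuD and is known for stabilising mRNAs of growing axons, stood at 16.9 and 20.5 CPM in WT, 30.9 CPM in KO 1 and 14.9 CPM in KO 2. KO 1 was again the highest, 1.51-fold above WT 2, and KO 2 was the lowest of the 4 (log2 fold change 0.20, SE 0.39, limma adjusted p = 0.898). Elavl1, their ubiquitous paralogue HuR, stood at 119 and 148 CPM in WT, 188 CPM in KO 1 and 138 CPM in KO 2, so its libraries differed at most 1.57-fold. Its log2 fold change of 0.28 (SE 0.26) did not pass either (limma adjusted p = 0.773).

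The bases just upstream of the Hu genes are shown because these genes of 1 family were each highest in KO 1. Those of Nova1, which was not, are shown for comparison. Being highest in KO 1 was not particular to the Hu genes: Celf1, Celf2 and Celf4 were too, as were 29% of features. Each run is the 250 bases before a transcript start in RefSeq (GRCm38.p6), 5′ to 3′ on the gene's strand. Capitals mark E-boxes, the kind of site that proneural bHLH factors bind, of the form CANNTG with GA, GC or CC as the middle bases on either strand. No marked sites overlap.
Elavl2, first of 6 starts, chr4:91399985-91400234, minus strand: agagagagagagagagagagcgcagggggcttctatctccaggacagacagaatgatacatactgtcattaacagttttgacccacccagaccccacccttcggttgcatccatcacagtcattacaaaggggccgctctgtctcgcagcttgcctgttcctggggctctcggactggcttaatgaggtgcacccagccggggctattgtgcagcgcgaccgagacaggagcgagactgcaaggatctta
Elavl3, its 1 start, chr9:22052024-22052273, minus strand: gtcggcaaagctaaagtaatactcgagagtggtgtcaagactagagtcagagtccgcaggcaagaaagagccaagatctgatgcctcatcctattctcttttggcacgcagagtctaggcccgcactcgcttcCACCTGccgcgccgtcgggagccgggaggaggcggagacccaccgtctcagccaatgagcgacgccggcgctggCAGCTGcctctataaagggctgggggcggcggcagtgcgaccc
Elavl4, first of 4 starts, chr4:110351912-110352161, minus strand: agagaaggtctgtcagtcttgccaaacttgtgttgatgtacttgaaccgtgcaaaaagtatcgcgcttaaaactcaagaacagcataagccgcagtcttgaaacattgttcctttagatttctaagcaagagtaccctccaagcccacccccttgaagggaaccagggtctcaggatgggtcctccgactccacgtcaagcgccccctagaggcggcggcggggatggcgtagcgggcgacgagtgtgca
Elavl4, second of 4 starts, chr4:110287528-110287777, minus strand: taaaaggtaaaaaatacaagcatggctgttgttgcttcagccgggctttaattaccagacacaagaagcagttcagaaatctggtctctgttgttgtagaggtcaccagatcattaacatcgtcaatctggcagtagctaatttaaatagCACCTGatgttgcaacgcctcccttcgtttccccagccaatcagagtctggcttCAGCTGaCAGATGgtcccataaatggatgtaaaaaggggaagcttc
Nova1, its 1 start, chr12:46818768-46819017, minus strand: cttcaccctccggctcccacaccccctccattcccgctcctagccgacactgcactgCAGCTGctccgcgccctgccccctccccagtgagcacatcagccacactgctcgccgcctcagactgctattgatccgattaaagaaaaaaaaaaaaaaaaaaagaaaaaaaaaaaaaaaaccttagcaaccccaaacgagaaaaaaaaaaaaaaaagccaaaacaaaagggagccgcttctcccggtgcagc
The window of Elavl3 held 2 of these E-boxes, and that of Nova1 held 1. For Elavl4, 3 of the 4 windows held at least 1, and the window of its second start held 3. That window and the next one downstream share 234 of their bases and the same 3 sites, so the 4 windows form 3 separate stretches, of which 2 held an E-box. None of the 6 windows of Elavl2 held one, nor did the windows of Celf1, Celf2 and Ptbp2. Windows of 7 of the 9 genes were searched, and Celf4 and Rbfox2 were not searched. Of 32536 distinct windows of this length upstream of RefSeq starts, 38.2% held at least 1 E-box of these 3 forms. In all, 10 motifs were searched, 2 of them parts of the binding site of the neuronal gene repressor REST. TTCAGCACC was in no window of these 7 genes and in 0.301% of all windows. GGACAGC was in 1 of the 5 windows of Celf2, in the 1 window of Ptbp2 and in 5.31% of all windows. These letters are a description of the windows and were not tested against expression.

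Among the CELF genes, Celf4, a regulator of translation and stability of synaptic mRNAs in excitatory neurons, differed most between libraries. It stood at 10.8 CPM in WT 1, 7.41 CPM in WT 2, 61.2 CPM in KO 1 and 13.0 CPM in KO 2. Both KO-labelled libraries lay above both WT libraries, which was so for 2 of the 9 genes (Celf4 and Rbfox2) and for 21.1% of features, but KO 1 was 4.72-fold above KO 2. The KO 2 value had an interval of 10.2 to 16.3 CPM from counting error, which overlaps the 8.56 to 13.5 CPM of WT 1. The estimate of 1.65 on the log2 scale had an SE of 0.69 and a 95% interval from -0.02 to 3.31 (limma adjusted p = 0.656). Celf3, a brain paralogue outside the set of 10, stood at 8.74 and 6.81 CPM in WT, 44.2 CPM in KO 1 and 10.1 CPM in KO 2. Its log2 fold change of 1.45 (SE 0.66, limma adjusted p = 0.658) came with KO 1 again apart, 4.36-fold above the next highest library. Celf1 and Celf2, which are expressed well beyond neurons, showed no such gap. Celf1 stood at 36.5 and 40.6 CPM in WT, 42.0 CPM in KO 1 and 30.8 CPM in KO 2. Celf2 stood at 66.9 and 70.8 CPM in WT, 78.7 CPM in KO 1 and 60.1 CPM in KO 2. For both genes the WT libraries lay between the KO-labelled ones, and the 95% intervals of the log2 fold change ran from -0.72 to 0.52 for Celf1 and from -0.58 to 0.58 for Celf2. Celf5 and Celf6 have no row in the table.

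Celf4 had the widest range of log2 levels of the 9 genes (3.03), ahead of Elavl2 (2.70), and Celf2 had the narrowest (0.39). By Euclidean distance between log2 levels centred over the 4 libraries, the profiles nearest to Celf4 among 8804 features with a mean of at least 10 CPM were those of Celf3 (distance 0.252), Tmem130 (0.340), Runx1t1 (0.419), Syt1 (0.522) and Irf9 (0.538). Each of these 5 genes was highest in KO 1, at 33.1 to 44.2 CPM, which follows from their choice by nearness to Celf4. With only 4 libraries, a near profile is a description.

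Rbfox2, a splicing regulator active in neurons and in other tissues, stood at 48.2 CPM in WT 1, 61.2 CPM in WT 2, 170 CPM in KO 1 and 79.99 CPM in KO 2. The groups did not overlap, and the counting interval of KO 2 (72.8 to 87.7 CPM) lay above that of WT 2 (57.9 to 64.5 CPM). KO 1 was 2.13-fold above KO 2, a wider gap than the 1.27-fold between the WT libraries. Its log2 fold change of 1.10 had an SE of 0.38 and a 95% interval from 0.18 to 2.03 (limma adjusted p = 0.655, and 0.0263 unadjusted). Its paralogues Rbfox1 and Rbfox3, the latter known as the neuronal antigen NeuN, have no row in the table.

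Nova1, which controls exons of synaptic proteins and is expressed in the brain from early neurogenesis, stood at 67.0 CPM in WT 1, 102.8 CPM in WT 2, 83.4 CPM in KO 1 and 75.9 CPM in KO 2. The WT libraries enclosed the KO-labelled ones (log2 fold change -0.06, 95% interval -0.73 to 0.60, limma adjusted p = 0.964).

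Ptbp2, also called nPTB, was the most abundant of the 9 genes per kilobase of transcript in each of the 4 libraries. It stood at 168 CPM in WT 1, 290.0 CPM in WT 2, 288 CPM in KO 1 and 147 CPM in KO 2. WT 2 and KO 1 were nearly level, WT 2 being 1.73-fold above WT 1 and KO 1 1.97-fold above KO 2, and the spread within each genotype exceeded the difference between genotypes (log2 fold change -0.10, SE 0.41, limma adjusted p = 0.960). Ptbp1, the paralogue that holds back Ptbp2 in progenitors by making its mRNA skip an exon and decay, stood at 43.6 and 51.3 CPM in WT, 55.4 CPM in KO 1 and 62.4 CPM in KO 2. Both KO-labelled libraries lay above both WT libraries, but the log2 fold change of 0.31 (SE 0.23) did not pass (limma adjusted p = 0.728). The ratio of Ptbp2 to Ptbp1, which needs no scaling between libraries, was 3.85 in WT 1, 5.66 in WT 2, 5.21 in KO 1 and 2.35 in KO 2. KO 2 had the lowest ratio, and KO 1 lay between the WT libraries. On the log2 scale the KO-labelled mean was 1.81 ± 0.81 and the WT mean 2.22 ± 0.39 (SD, n = 2 each), a difference of -0.42 (two-sided exact permutation p = 0.667, where 2 against 2 libraries can give no p below 0.333). Without KO 2 the difference was 0.16, with the opposite sign. Ptbp3, at 26.1 CPM in WT 1, 29.0 CPM in KO 1 and 27.0 CPM in KO 2, was highest in WT 2 (41.0 CPM).

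**Figure D2:**
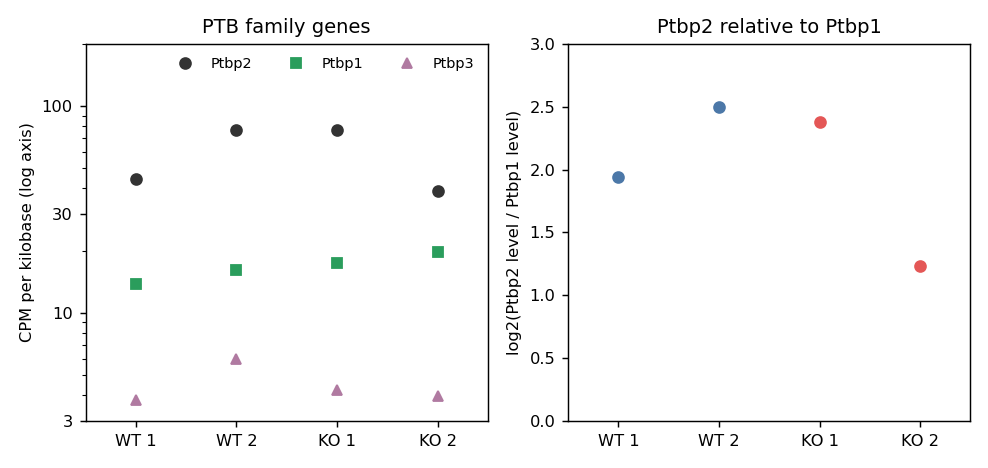
Left, levels of Ptbp2, Ptbp1 and Ptbp3 per kilobase of their longest coding transcript (y axis, log scale) in each library. Right, log2 ratio of the Ptbp2 level to the Ptbp1 level, with WT in blue and KO-labelled in red. Ptbp2 lies above Ptbp1 and Ptbp3 in all 4 libraries, and the ratio is lowest in KO 2.

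Levels of different genes are compared per kilobase of the longest coding transcript in GENCODE M21, as means over the 4 libraries. Ptbp2 led with 59.1 CPM per kilobase, followed by Rbfox2 with 13.0, Nova1 with 11.5 and Celf2 with 7.80. Celf4 followed with 5.78, Elavl4 with 5.02, Celf1 with 4.77, Elavl2 with 3.67 and Elavl3 with 2.09. The order below Ptbp2 was not stable. In KO 1, Rbfox2 reached 24.7 and Celf4 15.3 CPM per kilobase, above Nova1 at 11.7. In WT 1, Nova1 at 9.37 and Celf2 at 7.55 CPM per kilobase were above Rbfox2 at 6.97, and Celf4 stood at 2.71. Neighbours from Celf4 to Elavl2 in this order overlapped between libraries.

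Leaving out 1 library moved the estimates of the genes that were high in KO 1. Without KO 1, the log2 fold change was 0.53 for Celf4, 0.56 for Rbfox2, 0.08 for Elavl3, -0.32 for Elavl4 and -0.95 for Elavl2, with adjusted p-values by limma of 0.645, 0.535, 0.959, 0.764 and 0.535. Only Celf4, Rbfox2 and Elavl3 thus stayed above 0 without that library. Without KO 2, Celf4 had a log2 fold change of 2.75 (adjusted p = 0.00421 by limma) and Rbfox2 of 1.64 (adjusted p = 0.0157), and these 2 of the 9 genes passed, when 0.999% of features passed as higher and 0.6% as lower. That fit sets KO 1 alone against WT and assumes that it varies like the WT libraries. Elavl2 stood at 1.74 and Elavl3 at 1.50 in it and did not pass (adjusted p = 0.0988 and 0.0889 by limma). The direction of Elavl2 also turned with the WT libraries, to -0.31 without WT 1 against 1.10 without WT 2, and the median of the 9 genes was -0.04 without WT 1 and 0.34 without WT 2.

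**Figure D3:**
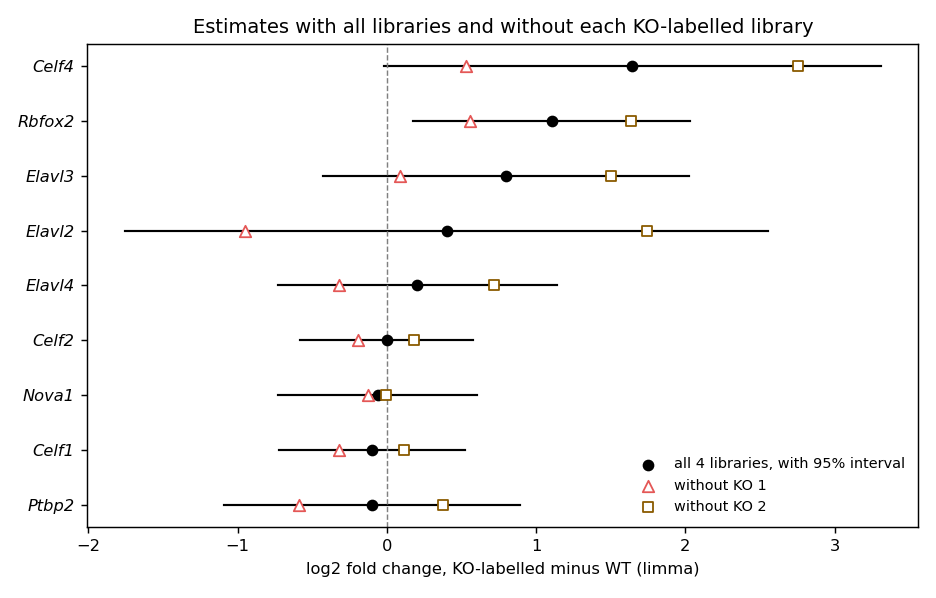
Log2 fold change of each gene, KO-labelled minus WT (x axis), from limma. Filled circles with bars give the estimate from all 4 libraries with its 95% interval, triangles the estimate without KO 1 and squares that without KO 2. For Celf4 the estimates are 1.65, 0.53 and 2.75, and for Elavl2 the triangle lies below 0 and the square above it.

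Other regulators of the same kind were taken from lists chosen by their known function. Among 13 other neural splicing regulators, 8 had a row, with 4 estimates higher and 4 lower, 0 called and a median log2 fold change of 0.048. The 4 with the smallest p were Rbm38, Mbnl2, Msi2 and Msi1. Rbm38, an RNA-binding protein whose gene p53 activates, was at 9.16 and 10.7 CPM in WT, 15.9 CPM in KO 1 and 24.5 CPM in KO 2, with KO 2 the highest (0.99, SE 0.32, limma adjusted p = 0.655). Mbnl2, a muscleblind protein that sets exon choice in the mature brain, was also highest in KO 2, at 98.5 CPM against 47.5 to 64.3 CPM elsewhere. The progenitor proteins Musashi 1 and 2 differed in pattern. Msi1 stood at 33.9 CPM in KO 1 and at 14.9 to 17.1 CPM in the other libraries, whereas Msi2 stood at 147 and 141 CPM in WT and 117 and 120 CPM in the KO-labelled libraries.

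Of 33 other mRNA-binding proteins that act on stability, transport or translation, 26 had a row, with 0 called and a median of 0.11. Their estimates were higher in 17 and lower in 9, where 51.4% of features were higher. None of them was more than 2-fold higher in KO 1 than in every other library. With only 1.71% of all features so, this does not set the list apart. The smallest p were those of Nanos1, Cpeb2, Zfp36l1 and Tial1. Nanos1, a translational repressor, stood at 25.4 and 28.2 CPM in WT and 42.5 and 36.3 CPM in KO 1 and KO 2 (0.55, SE 0.24, limma adjusted p = 0.656). Cpeb2, which binds cytoplasmic polyadenylation elements, stood at 6.39 and 5.85 CPM in WT and 8.58 and 11.4 CPM in the KO-labelled libraries. Zfp36l1, which promotes decay of AU-rich mRNAs, was highest in KO 2, at 33.4 CPM against 15.0 to 17.8 CPM elsewhere. Tial1, a stress granule protein, was lower in both KO-labelled libraries (38.8 and 36.4 CPM) than in WT (46.8 and 52.5 CPM). Of the 8 paralogues of the 10 genes, 4 had a row, 3 with a higher and 1 with a lower estimate, and 0 were called.

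Most neuron markers were highest in KO 1, like Celf4, Rbfox2 and the Hu genes. The likeness to the neuron marker sums did not extend to every library. Rbfox2 also stood above both WT libraries in KO 2, and Elavl2 was 2.69-fold higher in WT 2 than in WT 1, unlike these sums. Some single neuron markers shared these traits. Both KO-labelled libraries lay above both WT libraries in 2 of the 13 markers, Syt1 and Mapt (21.1% of features). In 1 of the 13, Neurod6, WT 2 was more than 2-fold above WT 1 (2.19-fold), as in 185 of 10971 features. Of the 13 measured neuron markers, 12 were highest in KO 1 (29% of features were). There 9 were more than 2-fold above every other library (1.71% of features). Their summed level was 1348 and 1378 CPM in WT, 2520 CPM in KO 1 and 1252 CPM in KO 2, and none was at 0 in any library. Relative to the WT mean their median was 1.50 in KO 1 and -0.18 in KO 2 on the log2 scale. Tubb3, the tubulin of new neurons, stood at 73.2 and 94.6 CPM in WT, 373 CPM in KO 1 and 38.9 CPM in KO 2. Dcx, the microtubule protein of migrating neurons, stood at 38.0 and 37.0 CPM in WT, 138 CPM in KO 1 and 32.0 CPM in KO 2. Syt1, the calcium sensor of synaptic vesicles, stood at 38.6 CPM in KO 1 and at 7.04 to 12.8 CPM in the other libraries. Map2, a dendritic protein, was nearly even, at 532 and 612 CPM in WT and 683 and 605 CPM in KO 1 and KO 2. Mapt, the axonal protein tau, stood at 161 CPM in KO 1 and at 36.0 to 74.3 CPM in the other libraries, and the filament protein Ina at 103 and at 20.8 to 24.8 CPM. The 2 measured inhibitory neuron markers, Gad1 and Dlx1, were also highest in KO 1, and WT 1 was more than 2-fold above WT 2 in both. The 2 measured intermediate progenitor markers, Hes6 and Btg2, were nearly even. Hes6 stood at 88.7 and 72.4 CPM in WT, 86.4 CPM in KO 1 and 90.5 CPM in KO 2. Btg2 stood at 225 and 221 CPM in WT, 216 CPM in KO 1 and 231 CPM in KO 2.

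Radial glia markers summed to less in KO 1 than in any other library, a sum made up mostly of Fabp7, Vim and Nes. The 11 markers summed to 13024 and 13343 CPM in WT, 6382 CPM in KO 1 and 9162 CPM in KO 2, with a median relative to WT of -0.35 and 0.12 in KO 1 and KO 2. Without Fabp7, Vim and Nes, 8 markers summed to 1808 and 1327 CPM in WT, 1383 in KO 1 and 1869 in KO 2. KO 1 thus lay between the WT libraries, but Slc1a3 made up the largest part of that sum. Slc1a3 stood at 947 CPM in WT 1, 467 in WT 2, 611 in KO 1 and 1040 in KO 2. The place of KO 1 in the sum therefore says little about the other genes. Sox2, a core progenitor factor, stood at 477 and 478 CPM in WT and 372 and 415 CPM in KO 1 and KO 2. Pax6, a factor of dorsal progenitors, was highest in KO 1 (112 CPM, against 58.1 to 87.2 CPM elsewhere). Nes, the progenitor filament nestin, stood at 1153 and 1719 CPM in WT and 772 and 819 CPM in the KO-labelled libraries, Vim, which encodes vimentin, at 4757 and 4911 against 2208 and 4211 CPM, and Fabp7, the lipid-binding protein of radial glia, at 5307 and 5387 against 2020.0 and 2263 CPM. The 7 oligodendrocyte lineage markers summed to 1018 and 994 CPM in WT, 677 CPM in KO 1 and 975 CPM in KO 2, with a median relative to WT of -0.52 in KO 1 and 0.044 in KO 2. The 6 astrocyte markers differed most between the WT libraries, with sums of 2220 and 1024 CPM, 1363 CPM in KO 1 and 1906 CPM in KO 2. In RNA from whole cultures, more cells of a type and more RNA per cell cannot be told apart. The part of neuron content in the levels of Celf4, Rbfox2 and the Hu genes was not tested.

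**Figure D4:**
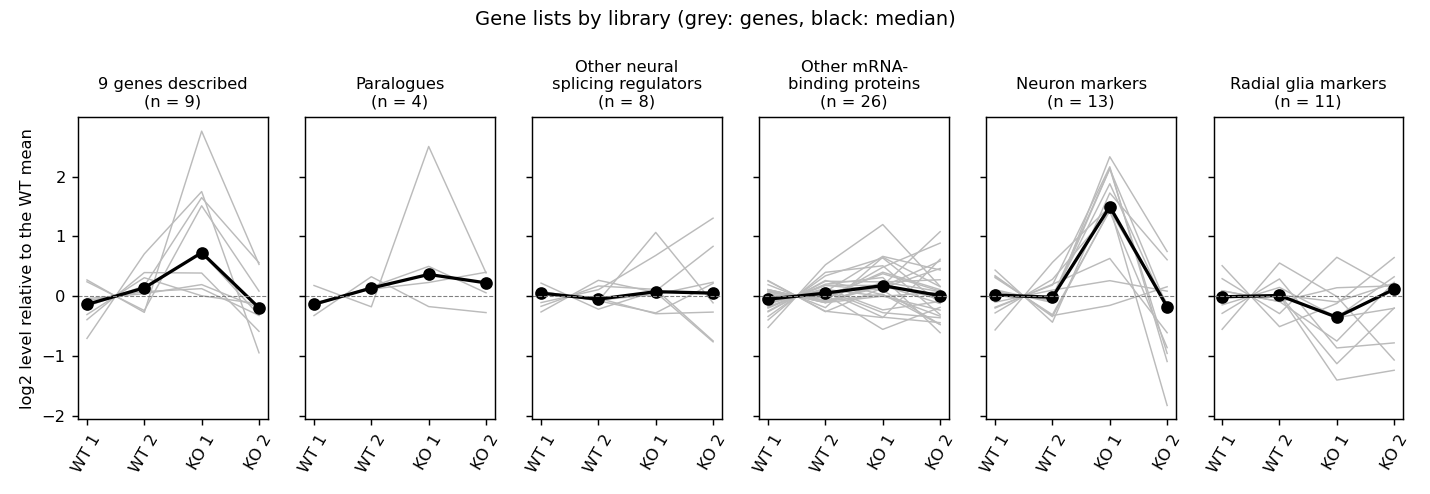
Log2 level relative to the WT mean (y axis) in each library for 6 gene lists. Grey lines are genes and black points the list's median, and the 2 WT libraries mirror each other because their mean is set to 0. The neuron markers peak in KO 1 with a median of 1.50, and the 9 regulators with one of 0.73.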

How the data were processed

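Strand-specific RNA-seq libraries were made from ribosomal RNA-depleted total RNA and read for 75 bases with 4 libraries in 1 lane, per the labels' protocols. The submitters' processing notes list STAR 2.3.0, DESeq 1.12.1, SAMtools 0.1.19, Picard 1.119 and FastQC 0.10.1. How each was used, the build, the annotation, the counting rule and the expression filter: not given in the sources used here. The values the authors deposited are a signal per gene: from the values themselves, each library's read counts had been divided by a single factor before they were deposited, and 100% of values were whole multiples of a step within 0.01. The deposited factors (0.733, 0.873, 1.64 and 0.957 for WT 1, WT 2, KO 1 and KO 2) left the libraries on different scales. Values were therefore divided by TMM factors (edgeR 4.0.16), filtered with filterByExpr (minimum 10, 10971 of 11160 features kept) and tested in R 4.3.3 with limma 3.58.1 (mean-variance trend) on log2(value + 1), two-sided, with Benjamini-Hochberg adjustment over all features. Fold changes are on that scale, which understates those of low genes. The design allowed for raw counts too; since the table holds normalized values, limma was used. In 5 simulated data sets of 11160 features limma called 85.6% of genes changed 4-fold and 8.2% of those changed 2-fold. It made 8.6 false calls per set on average. The simulated features varied independently of each other, so these shares may not hold where many genes shift together in 1 library. The genes and lists were chosen with earlier results of these data known. Named are all members, all measured paralogues, the 4 list genes with the smallest p, Mcph1, and the 5 profiles nearest to the widest-ranging member. Also named are the 3 neuron and radial glia markers with the smallest p, the measured intermediate progenitor markers and fixed defining markers. Gad1, Dlx1, Slc1a3 and Neurod6 were named after their values were seen. The number of reads limits precision: 3 reads correspond to 0.137 to 0.533 CPM. Promoter windows are from RefSeq.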

Additional observations from a re-analysis of the deposited data

How the results depend on the processing

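The 9 genes gave 153 estimates over 17 alternatives, of which 133 had the same sign and stayed on the same side of the threshold, 2 passed it (Celf4 and Rbfox2 without KO 2) and 18 reversed. The fit without a filter and the replicate blocks described below could not move an estimate of these genes. Part of the 133 was therefore fixed in advance. The number of called features was 0 in limma (832 before adjustment) and 0 in edgeR's quasi-likelihood test (866 before adjustment). DESeq2 1.42.0 on recovered reads called 21 features, none of them among the 9 genes. Without scaling the median of all features was -1.25, 8 features were called, and the members' median was -1.06, with Elavl2 at -0.86, Elavl3 at -0.46, Elavl4 at -1.06 and Rbfox2 at -0.17; relative to the median of all features, all of these lay above 0. Celf2, at -0.0011 with all 4 libraries, turned to 0.040 with upper quartile factors, 0.0086 without unnamed features, 0.013 in edgeR, 0.0056 in DESeq2 and 0.0089 in limma-voom. With each library left out in turn, the number of features called ranged from 0 to 176 (21 without KO 1 and 176 without KO 2), the members' median from -0.20 to 0.72, and the log2 ratio of Ptbp2 to Ptbp1 from -0.99 to 0.16. The estimates ranged from -0.32 to 0.12 for Celf1, -0.20 to 0.18 for Celf2, 0.53 to 2.75 for Celf4, -0.95 to 1.74 for Elavl2, 0.08 to 1.50 for Elavl3, -0.32 to 0.72 for Elavl4, -0.37 to 0.24 for Nova1, -0.59 to 0.38 for Ptbp2 and 0.56 to 1.64 for Rbfox2; the cause was not tested. WT and KO-labelled libraries with the same number did not deviate alike from their group means (correlation of deviations -0.30). With 2 libraries per genotype, this cannot decide whether the numbers pair them. The replicate block called 0 features, as did the fit without it, so that count does not bear on pairing. Before adjustment the block gave 475 features, against 832 without it. With 2 pairs a block cannot move an estimate, so the unchanged members' median of 0.20 and Ptbp2 to Ptbp1 difference of -0.42 bear on nothing. A block with the numbers crossed, added after seeing the data, put WT 1 with KO 2 and WT 2 with KO 1. It called 0 features, with 1485 before adjustment. With the trend of transcript length and GC content removed (85.6% of tested features had both), Rbfox2 stood at 0.85, Elavl3 at 0.57, Celf4 at 1.56, Elavl2 at 0.50, Elavl4 at 0.30, Celf1 at -0.28, Celf2 at -0.11, Nova1 at -0.088 and Ptbp2 at -0.035, with a members' median of 0.30.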
